A study of Drosophila simulans and Drosophila melanogaster and Drosophila sechellia with 48 samples.

Results

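The genes described here are the glutathione S-transferases and UDP-glycosyltransferases of Drosophila that are carried by an Affymetrix Drosophila 1.0 array. They were chosen by symbol. A probe set (the group of short probes that reports on 1 transcript) entered when its annotation gave a single gene symbol that begins with Gst followed by D, E, S, T, O or Z and a digit, or with Ugt followed by a digit. This gave 71 probe sets of 14010 on the array. Where a gene had several probe sets the brightest was kept, which left 67 genes among 12367 features tested. They fall into 11 GstD (delta), 14 GstE (epsilon), 3 GstO (omega), 1 GstS (sigma), 3 GstT (theta), 2 GstZ (zeta) and 33 Ugt genes. GstO2 had 3 probe sets, and Ugt35B1 and Ugt305A1 had 2 each. All 67 were tested, with no filter on low signals.

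Glutathione S-transferases join the tripeptide glutathione to electrophilic compounds, among them plant toxins, insecticides and products of lipid oxidation, so that these can be excreted. The delta and epsilon classes are expanded in insects and are the classes best known for detoxification, while the omega, sigma, theta and zeta classes are found more widely in animals. UDP-glycosyltransferases act on many of the same kinds of substrate by adding a sugar taken from a UDP-sugar, and in insects they are known from the gut, fat body, Malpighian tubules and antennae.

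RNA came from whole adult males aged 3 days, 20 flies per sample, knocked down with CO2 and reared at 25 C on cornmeal medium with yeast under constant light. The 48 arrays formed 16 groups of 3 biological replicates, of which 10 were crosses of D. simulans and 6 were the other species, D. melanogaster, D. mauritiana, D. sechellia, D. santomea, D. yakuba and D. teissieri. D. melanogaster was an even mix of isogenic lines from a wild population crossed in a ring. Each D. simulans group was 1 cross between neighbouring lines of such a ring (6x11, 11x36, 36x37, 37x43, 43x61, 61x77, 77x85, 85x99, 99x105 and 105x6), so neighbouring crosses share a parental line. The other 5 species were each a single stock-centre line, and for them a difference between species and a difference between lines cannot be told apart. No group was treated.

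Probes were designed on D. melanogaster. In another species a higher or lower signal from transcript number and one from mismatched probes cannot be told apart. The study reports that keeping mismatched probes tended to raise its estimates of expression. Related genes of a cluster may also share hybridisation. In RNA of whole flies, fewer cells of a type and less RNA per cell cannot be told apart either. The flies of D. simulans and D. melanogaster belonged to an earlier collection and those of the 5 stock-centre lines to a later one. Each contrast of the 67 genes across this line is therefore given again within 1 collection. The F-test among species spans both collections, and of the marker and pathway results only some are given again. Female markers (yolk and eggshell genes) stood high on sechellia replicate 1 and on replicate 3 of the simulans cross 37x43, where their median deviation from the other arrays was 5.81 and 4.62 on the log2 scale. Replicate arrays correlated least in D. yakuba and D. santomea, where yakuba replicate 2 and santomea replicate 2 had a mean r across features of 0.66 and 0.70 with the other arrays of their group. In D. teissieri replicate 3 was lowest, with 0.79. These 3 arrays, each the lowest of its species in the yakuba complex, are called the arrays of low agreement below. The remaining arrays of D. yakuba and D. santomea (0.76 to 0.77) and replicate 3 of the simulans cross 99x105 (0.79) also lay at or below teissieri replicate 3 but were kept. Signals below are normalised log2 signals, and a difference of 1 is a doubling. The mean signal of 39 of the 67 genes lay below that of the median feature, and this held for 23 of the 33 Ugt genes. Levels are compared only between samples for the same gene.

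Of the 67 genes, 47 varied among the 7 species in a moderated F-test with adjusted p at or below 0.05 (limma, Benjamini-Hochberg over all features), a share of 70.1% beside a background of 66% of all features. By class these were 7 of 11 GstD, 11 of 14 GstE, 3 of 3 GstO, 1 of 1 GstS, 1 of 3 GstT, 2 of 2 GstZ and 22 of 33 Ugt genes. The largest F values were those of Ugt35C1 (F = 81.2, adjusted p = 7e-17), GstD2 (F = 71.9, adjusted p = 3.67e-16) and GstE6 (F = 70.1, adjusted p = 5.43e-16). They ranked 46, 65 and 67 among all features by p. The next were GstE12, GstE3, GstD9, GstE7, GstE9, Ugt302C1, GstO2, GstO1 and GstE5, with F from 51.8 down to 24.2. Ugt303B2 passed with F = 2.70 and adjusted p = 0.0443, and this call was lost in 22 of the 48 fits that left out 1 array, with adjusted p up to 0.0879.

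The 20 genes that did not pass were GstD6, GstD7, GstD8, GstD11, GstE4, GstE10, GstE11, GstT2, GstT3, Ugt36A1, Ugt36D1, Ugt37C1, Ugt37C2, Ugt37E1, Ugt35E2, Ugt49B2, Ugt302E1, Ugt303B1, Ugt305A1 and Ugt307A1. Their adjusted p lay between 0.0695 for Ugt36D1 and 0.76 for Ugt36A1.

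The span between the highest and the lowest species mean had a median of 2.32 over the 67 genes, 3.23 over the GstE genes and 2.10 over the Ugt genes. It was widest in GstE7 (6.61), GstE6 (6.28) and GstE9 (5.32), and narrowest in Ugt36A1 (0.72). The same span over the 10 D. simulans crosses had a median of 1.37, and it was narrower than the span over species in 54 of 67 genes. Of the 33 Ugt genes 10 had their highest species mean in D. melanogaster and 9 in D. santomea, and 10 had their lowest in D. sechellia. Of the 34 Gst genes 3 were highest in D. melanogaster, 9 in D. sechellia, 8 in D. yakuba and 7 in D. simulans, while 9 were lowest in D. santomea. These counts are descriptions, were not made over all features and include genes that did not pass the test.

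**Figure D1:**
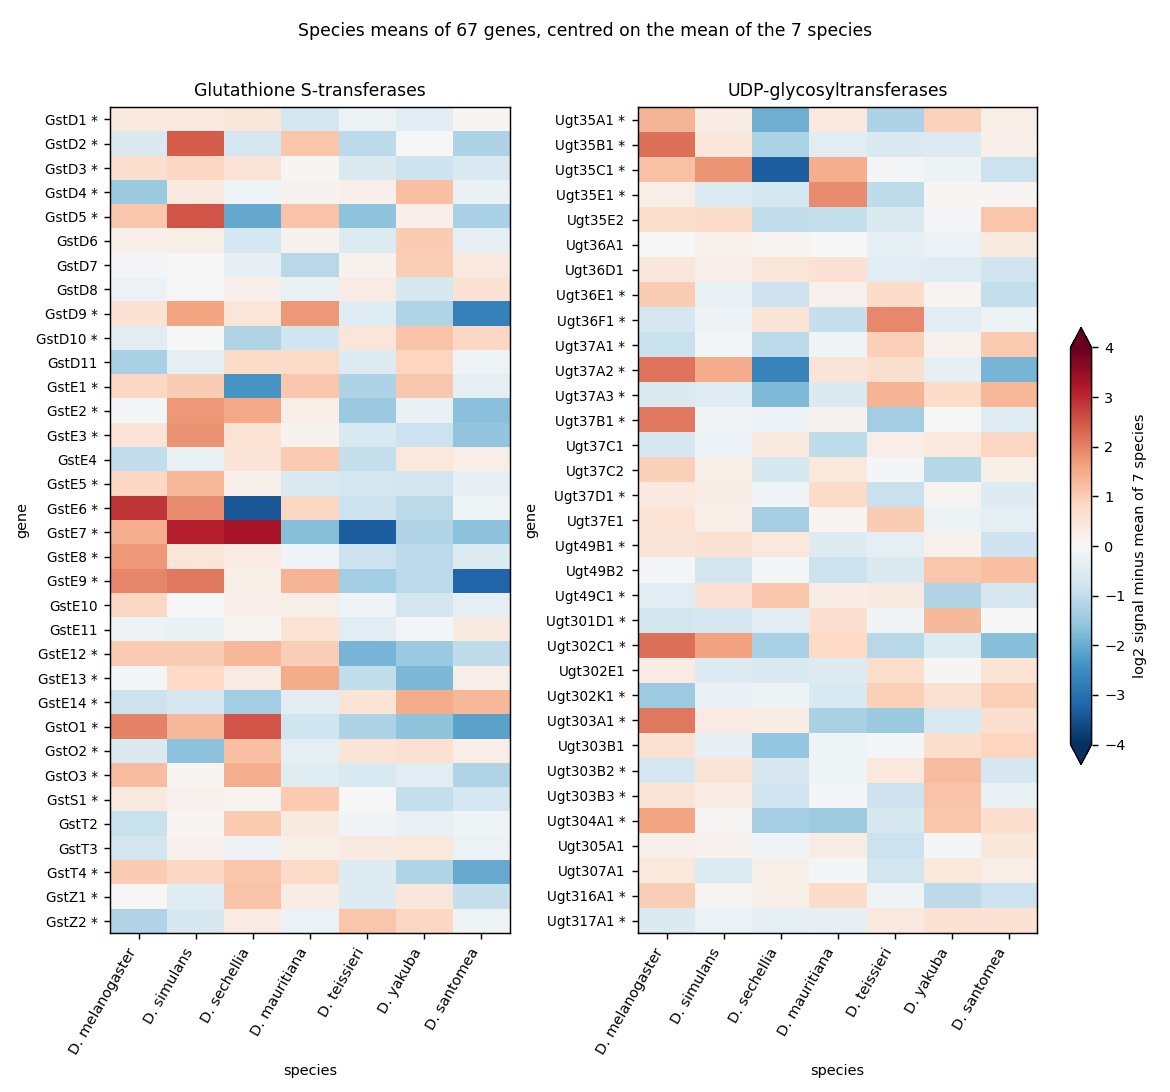
Species means of all 67 genes (rows) in the 7 species (columns), as normalised log2 signal minus the gene's mean over the 7 species, with an asterisk for the 47 genes that varied among species. The deepest blue cells are GstE6 and Ugt35C1 in D. sechellia, GstE7 in D. teissieri and GstE9 in D. santomea, and the GstE genes are mostly red in the 4 species on the left and blue in the 3 on the right.

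GstD1 and GstS1, the members with the highest mean signals, had spans of species means of 1.11 and 1.99, below the median of 2.32. The members next in mean signal were mixed, with spans of 1.19 in GstT3, 3.18 in GstE12 and 3.39 in GstE3. GstD1, a delta-class enzyme known in D. melanogaster for its activity on DDT, gave 14.13, 13.58 and 14.37 on the 3 arrays of D. melanogaster, 14.08, 14.14 and 14.02 in D. sechellia, 12.90, 13.25 and 12.77 in D. mauritiana, and a lowest, median and highest of 12.93, 13.99 and 14.54 over the 30 arrays of D. simulans. In the yakuba complex its arrays lay between 12.94 and 14.01. GstD1 varied among species (F = 7.52, adjusted p = 0.000116), with D. mauritiana lowest, but the call was lost when only the array medians were set equal (F = 2.09, adjusted p = 0.105).

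GstS1, the single sigma-class enzyme, which is abundant in flight muscle, gave 12.93, 13.42 and 13.35 in D. melanogaster and 13.81, 13.63 and 14.22 in D. mauritiana. It gave 12.56, 11.38 and 11.75 in D. yakuba and 12.85, 11.13 and 12.44 in D. santomea. D. mauritiana was highest and D. yakuba lowest, and the arrays of these 2 species did not overlap. In D. teissieri GstS1 gave 13.71, 13.83 and 10.94, so replicate 3 stood well below the other 2 arrays.

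The deepest split of the 7 species sets 9 arrays of the yakuba complex (D. teissieri, D. yakuba and D. santomea) against 39 of the melanogaster complex (D. mauritiana, D. sechellia, D. simulans and D. melanogaster). Of the 34 glutathione S-transferases 17 were lower in the yakuba complex, and 9 of these were of the epsilon class. Of 67 genes, 36 differed, beside 49.8% of all features. Of these, 26 were lower (38.8% of the genes, background 24.5%) and 10 higher (14.9%, background 25.3%). A further 5 Gst genes were higher, and the Ugt genes gave 9 lower and 5 higher of 33. The median difference was -0.86 over the Gst genes and -0.04 over the Ugt genes, beside 0.08 over all features. The SE and adjusted p of these differences rest on the spread between replicate arrays of a group. They do not cover the spread among the 3 species of 1 complex and the 4 of the other.

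Markers of other tissues moved in the same contrast. Of 9 accessory gland genes 6 were lower and 0 higher, with a mean signal per array of 4.37 to 6.92 in the yakuba complex against 6.84 to 11.61 in the melanogaster complex. Of 8 testis genes 4 were lower and 1 higher, and of 7 digestive enzymes of the midgut 3 were lower and 1 higher. Of 13 female markers 3 were higher and 0 lower. The 3 Malpighian tubule markers gave 1 higher and 1 lower, and the 3 antenna markers 0 higher and 1 lower. Within the later collection, against D. sechellia and D. mauritiana, testis genes gave 4 higher and 2 lower and midgut genes 1 and 1. There accessory gland genes gave 1 higher and 5 lower, and 0 female markers were called. The mean midgut signal ran from 8.49 to 13.02 in the yakuba complex and from 9.11 to 13.44 in the melanogaster complex, and the part of these markers in the values below was not tested.

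Of the 14 epsilon genes 9 fell, 1 rose and 4 (GstE1, GstE4, GstE10 and GstE11) did not pass, with a median difference of -1.33. GstE12 gave 9.06, 8.22 and 9.31 in D. teissieri, 9.74, 8.92 and 8.97 in D. yakuba and 9.05, 10.20 and 9.81 in D. santomea. The 39 arrays of the melanogaster complex had a lowest, median and highest GstE12 signal of 10.84, 11.77 and 12.27. All 9 arrays of the yakuba complex therefore lay below all 39 others, and the difference was -2.54 (SE 0.16, adjusted p = 2.73e-15), a 5.84-fold lower signal. Such a gap downwards was seen in 2 of the 67 genes and in 1.55% of all features. The gap upwards was seen in 0 of the 67 and in 0.768% of features.

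The other epsilon genes with large differences overlapped in a few arrays. GstE7 had a lowest, median and highest of 2.98, 4.81 and 7.96 in the yakuba complex and of 3.01, 10.33 and 11.69 in the melanogaster complex, and was 11.9-fold lower (-3.58, SE 0.45, adjusted p = 3.3e-08). The low end of the melanogaster complex came from D. mauritiana, where GstE7 gave 5.59, 7.62 and 3.01. GstE9 had 4.48, 8.49 and 10.65 against 9.93, 11.98 and 12.77, and was 9.87-fold lower (-3.30, SE 0.35, adjusted p = 9.42e-10). The lowest of these GstE9 values belonged to santomea replicate 2, and yakuba replicate 2 gave 6.38, the 2 arrays that agreed least with their groups. Without those arrays and teissieri replicate 3 the difference of GstE9 was -2.39, still past the threshold.

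GstE3 had 8.65, 9.65 and 10.58 against 10.34, 12.47 and 13.20, a difference of -1.77 (SE 0.19, adjusted p = 1.53e-09). GstE2, GstE13, GstE8, GstE6 and GstE5 differed by -2.01, -1.49, -1.42, -1.23 and -1.03. GstE14 was the only epsilon gene that rose, by 1.96 (SE 0.37, adjusted p = 3.4e-05), from a lowest, median and highest of 4.04, 4.92 and 7.79 to 5.63, 6.53 and 8.56. GstE14 is known in D. melanogaster as Noppera-bo, which acts in the handling of cholesterol for ecdysteroid synthesis in the prothoracic gland.

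The delta class was split. GstD9 gave 8.76, 8.74 and 9.26 in D. teissieri, 9.22, 6.33 and 9.11 in D. yakuba and 7.93, 5.36 and 6.80 in D. santomea, against 9.68, 10.92 and 12.04 as the lowest, median and highest in the melanogaster complex. These arrays did not overlap either, and GstD9 was 5.91-fold lower (-2.56, SE 0.25, adjusted p = 8.65e-11). GstD2, GstD3 and GstD5 also fell, by 1.34, 1.18 and 1.56. GstD10 rose by 1.44 (SE 0.31, adjusted p = 0.000192) and GstD7 by 0.88 (SE 0.32, adjusted p = 0.0209). The median of the 11 delta genes was 0.05. Within D. simulans the cross means of GstD10 spanned 3.84.

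The omega enzymes GstO1 and GstO3 were lower by 2.91 and 1.33 (adjusted p = 1.49e-09 and 8.72e-09). In the yakuba complex GstO1 lay between 3.45 and 7.67, whereas it gave 8.84, 8.29 and 8.92 in D. melanogaster and 9.47, 9.41 and 8.68 in D. sechellia. GstO2 was called higher by 0.80 (SE 0.23, adjusted p = 0.00367), but its 3 probe sets did not run the same way. A further GstO2 probe set fell by 0.90 (adjusted p = 0.00256), the dimmest rose by 1.96 (adjusted p = 0.0166), and the mean of the 3 gave 0.62 with adjusted p = 0.0505, so no direction is given for GstO2 here.

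Among the remaining classes, GstT4 (theta) gave 9.16, 8.30 and 10.80 in D. teissieri, 8.74, 7.94 and 9.54 in D. yakuba and 7.02, 7.64 and 9.14 in D. santomea. The melanogaster complex lay between 10.24 and 11.44, so that only teissieri replicate 3 overlapped, and the difference was -2.17 (SE 0.23, adjusted p = 7.42e-10). GstS1 fell by 0.99 (SE 0.23, adjusted p = 0.000584), and by 0.42 (adjusted p = 0.0193) without the 3 arrays of low agreement. GstZ2 rose by 1.02 (SE 0.26, adjusted p = 0.00157). It belongs to the zeta class, known in other animals for an isomerase of tyrosine breakdown, and gave 7.69, 7.03 and 7.44 in D. melanogaster and 9.29, 9.62 and 10.16 in D. teissieri. GstT2, GstT3 and GstZ1 did not pass.

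Of the Ugt genes, Ugt302C1 showed the largest drop, to 5.51 from 7.46 (-1.95, SE 0.28, adjusted p = 4.24e-07). It gave 5.01, 6.11 and 5.42 in D. teissieri and 8.97, 8.48 and 9.07 in D. melanogaster, but D. sechellia, with 5.01, 5.51 and 5.48, lay within the range of the yakuba complex. Ugt316A1, Ugt37B1, Ugt36D1, Ugt49C1, Ugt37D1, Ugt35C1, Ugt49B1 and Ugt35B1 fell by 1.21, 1.1, 1.01, 0.90, 0.77, 0.64, 0.61 and 0.55. The 5 Ugt genes that rose were Ugt37A3 (1.99), Ugt302K1 (1.47), Ugt37A1 (1.26), Ugt317A1 (0.89) and Ugt301D1 (0.71). Ugt37A3, Ugt302K1 and Ugt37A1 were dim, with mean signals of 5.90, 4.95 and 5.81 beside 7.74 for the median feature. Among the Ugt genes that fell, Ugt302C1, Ugt316A1 and Ugt37B1 were dim too (6.62, 6.62 and 5.63). Among features with a mean log2 signal of at least 7, 6 of 42 members of all classes were higher and 24 lower. Ugt317A1 had a lowest, median and highest of 9.08, 9.51 and 10.02 in the yakuba complex and of 8.03, 8.69 and 9.66 in the melanogaster complex, so the groups overlapped in part (SE 0.15, adjusted p = 8e-06).

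Of the Ugt genes that were refitted under the alternatives, 3 lost this call in some of them. That of Ugt35B1 (adjusted p = 0.0489) was lost in 38 of the 48 fits that left out 1 array and with the mean of both its probe sets, and that of Ugt36D1 was lost without the 3 arrays of low agreement (-0.24, adjusted p = 0.258) and with array weights (-0.48, adjusted p = 0.0686). Ugt35C1 lost it with array weights (-0.50, adjusted p = 0.0526). In Ugt36D1 those were yakuba replicate 2 at 7.61, santomea replicate 2 at 7.09 and teissieri replicate 3 at 7.19, while the other arrays of the yakuba complex lay between 9.01 and 10.25.

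Within the later collection, the same 9 arrays were compared with the 6 of D. sechellia and D. mauritiana. Of the 67 genes 19 were lower (background 21%) and 9 higher (background 18.4%), 28 in all beside 39.3% of all features. The Gst genes gave 14 lower and 3 higher and the Ugt genes 5 lower and 6 higher. Without quantile normalisation 16 were lower and 12 higher, and 25 of these genes were shared with the calls above. GstE12 (-2.61, SE 0.20, adjusted p = 1.53e-12) and GstD9 (-2.58, SE 0.31, adjusted p = 2.55e-08) kept their differences and their arrays did not overlap, and GstD10 (1.83, SE 0.39, adjusted p = 0.000273) and Ugt317A1 (0.86, SE 0.19, adjusted p = 0.000459) stood above with no overlap. Non-overlap downwards covered 5.15% and upwards 3.56% of all features. Of the epsilon genes 6 were lower and 1 higher here. GstE5, GstE6 and GstE8, called lower against all 4 species, did not pass in this comparison. Nor did GstD5, GstO2, GstZ2, Ugt35B1, Ugt37B1, Ugt49B1 and Ugt301D1, which had also been called against all 4. Ugt35C1 turned its sign, from -0.64 against all 4 species to 0.56 (SE 0.23, adjusted p = 0.0487) against D. sechellia and D. mauritiana, and this last call was lost in 10 of 15 fits that left out 1 array.

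**Figure D2:**
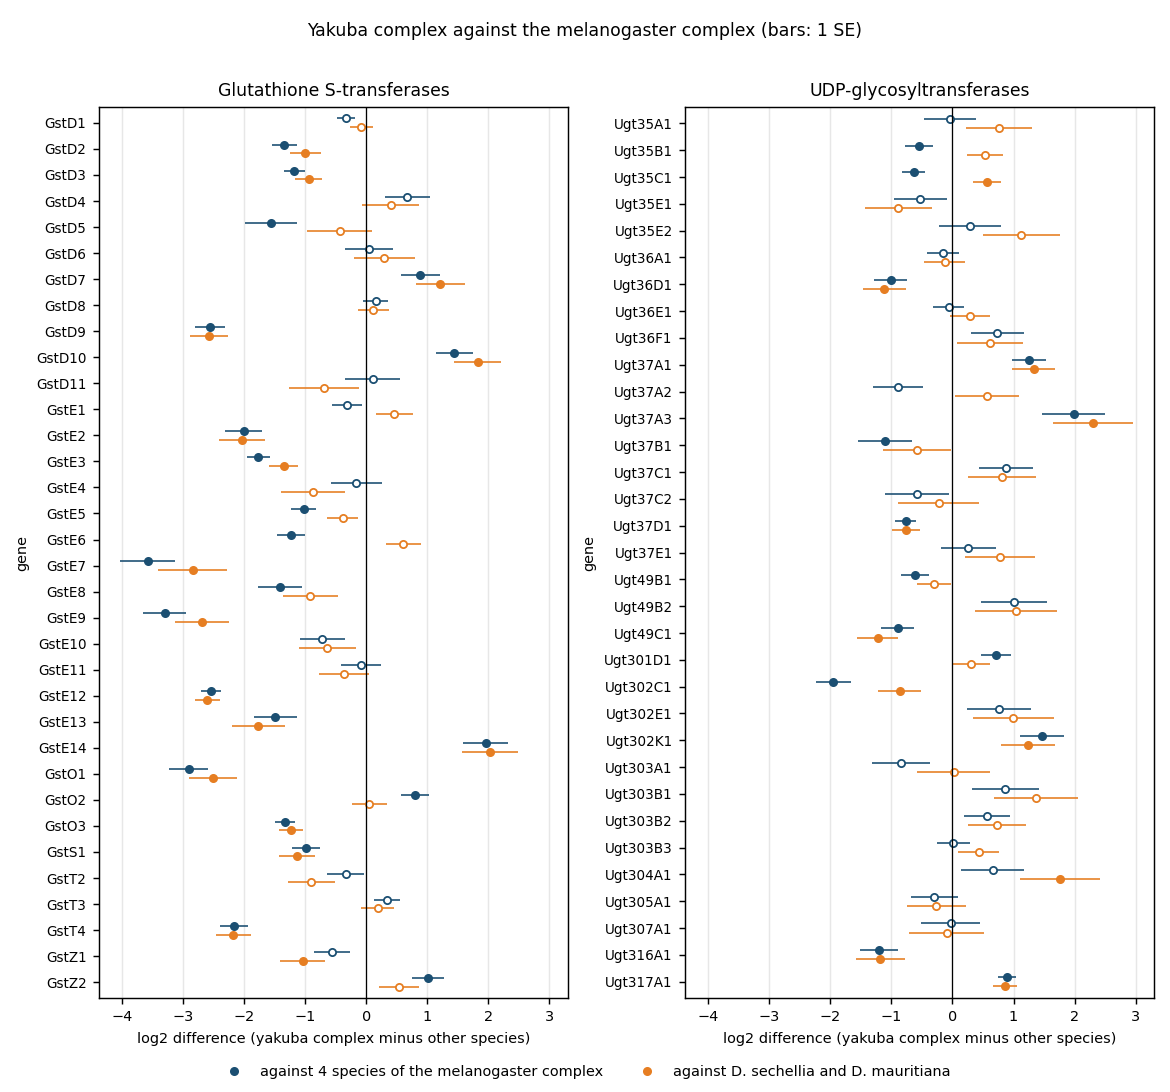
Difference in normalised log2 signal between the yakuba complex and the 4 species of the melanogaster complex (dark blue) or D. sechellia and D. mauritiana alone (orange) for each gene, with bars of 1 SE and filled points where adjusted p was at or below 0.05. Of the 14 GstE genes 13 lie below 0 for the dark blue points, and GstE14 lies at 1.96.

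D. sechellia, a species specialised on the fruit of Morinda citrifolia in nature, was compared with the 2 species closest to it, D. mauritiana and D. simulans (3 arrays against 33). Here 13 of the 67 genes differed, 19.4% beside a background of 6.17%. Lower were 9 genes (13.4%, background 3.39%), namely GstD2, GstD5, GstE1, GstE6, Ugt35A1, Ugt35B1, Ugt35C1, Ugt37A2 and Ugt302C1. Higher were 4 (5.97%, background 2.78%), namely GstE7 and the omega genes GstO1, GstO2 and GstO3. The sechellia arrays lay below all 33 others in 7 of the 67 genes (background 1.48%) and above them in 2 (background 2.39%), counts that include GstD9 and GstE9, which were below without passing the test. No Ugt gene was called higher, and the median difference over the 33 Ugt genes was -0.63, beside 0.04 over all features.

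Ugt35C1 gave 5.63, 5.0 and 6.38 in D. sechellia, 10.43, 10.61 and 10.15 in D. mauritiana, and a lowest, median and highest of 9.68, 10.76 and 11.86 in D. simulans. Every sechellia array lay more than 3 log2 units below every array of the sister species, a gap of 3.30. The difference was -4.90 (SE 0.28, adjusted p = 8.41e-16), a 29.9-fold lower signal, and it ranked 9 among all features by p. D. melanogaster, at 9.91, 10.27 and 10.22, and the yakuba complex, between 7.92 and 9.37, also lay above D. sechellia.

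GstE6 gave 4.10, 4.5 and 3.83 in D. sechellia against 8.45, 8.85 and 7.88 in D. mauritiana and 8.49, 9.49 and 10.32 (lowest, median, highest) in D. simulans. The arrays were separated by 3.38, and the difference was -4.79 (SE 0.35, adjusted p = 7.12e-13), 27.7-fold. GstE1 gave 6.80, 6.89 and 6.32 in D. sechellia, 10.01, 10.50 and 9.80 in D. mauritiana and 7.59, 10.23 and 11.05 in D. simulans. It was 10.5-fold lower (-3.40, SE 0.38, adjusted p = 4.43e-08), with no overlap.

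GstD2 gave 7.76, 8.16 and 8.20 in D. sechellia, 9.66, 10.01 and 9.78 in D. mauritiana and 10.09, 11.21 and 11.80 in D. simulans, so each sechellia array was below all 33 others. Its difference was -2.43 (SE 0.32, adjusted p = 1.05e-06). D. melanogaster gave 7.59, 8.57 and 8.19, within the range seen in D. sechellia and the yakuba complex, so GstD2 stood apart in D. simulans and D. mauritiana by their high signal. Ugt302C1, at 5.01, 5.51 and 5.48, was below its sister species without overlap (-2.50, SE 0.43, adjusted p = 0.000155).

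GstD5 (-3.87, SE 0.66, adjusted p = 0.000109) and Ugt37A2 (-3.68, SE 0.64, adjusted p = 0.000164) fell 14.6-fold and 12.8-fold, and in each the lowest arrays of the sister species overlapped with D. sechellia. Ugt35A1 fell by 2.29 (SE 0.67, adjusted p = 0.0303) with sechellia arrays from 2.70 to 6.21. Ugt35B1, at 8.61, 8.32 and 6.87, fell by 1.25 (SE 0.36, adjusted p = 0.0316), and without sechellia replicate 3 by 0.72 (adjusted p = 0.379). This call was also lost without sechellia replicate 2 (adjusted p = 0.0635), mauritiana replicate 1 (0.052) and mauritiana replicate 3 (0.0736), and with the mean of both its probe sets (-0.79, adjusted p = 0.156).

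GstO3 gave 10.48, 10.65 and 10.99 in D. sechellia, 8.74, 8.82 and 8.71 in D. mauritiana and 8.62, 9.34 and 10.16 in D. simulans, 1.65 higher (SE 0.24, adjusted p = 1.12e-05) with no overlap. GstO2 gave 11.51, 11.78 and 11.12 against 10.18, 9.97 and 9.61 in D. mauritiana and 6.49, 8.83 and 9.74 in D. simulans, 2.18 higher (SE 0.35, adjusted p = 5.25e-05). The mean of the 3 GstO2 probe sets gave 0.72 with adjusted p = 0.376. GstO1 was 2.26 higher (SE 0.49, adjusted p = 0.00246), with 9.47, 9.41 and 8.68 in D. sechellia, 4.64, 6.72 and 6.28 in D. mauritiana and up to 8.74 in D. simulans. The GstO3 and GstO1 arrays of D. melanogaster, given in other paragraphs, overlapped those of D. sechellia. For these genes the contrast therefore does not show which species changed.

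GstE7 gave 10.07, 10.58 and 10.65 in D. sechellia. D. simulans, with a lowest, median and highest of 7.63, 10.55 and 11.69, covered this range, and D. mauritiana did not reach it with 5.59, 7.62 and 3.01. The call of GstE7 (2.62, SE 0.70, adjusted p = 0.0161) was lost without sechellia replicate 1 (2.80, adjusted p = 0.0623), 2 (2.55, 0.101) or 3 (2.51, 0.0751) and without mauritiana replicate 3 (2.02, 0.0733).

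Within the later collection, D. sechellia minus D. mauritiana (3 arrays against 3) called 12 genes beside 5.26% of all features, 7 of them lower (background 2.94%) and 5 higher (background 2.32%). GstE6 (-4.25, SE 0.44, adjusted p = 8.28e-09), Ugt35C1 (-4.73, SE 0.35, adjusted p = 2.17e-12), GstE1 (-3.43, SE 0.47, adjusted p = 3.83e-06), GstD2, GstD5, Ugt37A2 and Ugt302C1 were lower. GstO3 (1.95), GstO1 (3.31, or 2.69 without mauritiana replicate 1), GstO2 (1.55), GstE7 (5.03, from 3.83 to 6.13 with 1 array left out) and GstD1 (1.11) were higher. The call of GstD1 was lost without quantile normalisation (0.58, adjusted p = 0.385) and with array medians set equal (0.49, adjusted p = 0.618). It was also lost without sechellia replicate 2 (adjusted p = 0.0582), mauritiana replicate 1 (0.0522) or mauritiana replicate 3 (0.0786). That of GstO2 was lost with the mean of its 3 probe sets (0.76, adjusted p = 0.54) and without sechellia replicate 1 (0.0942) or 2 (0.147) or mauritiana replicate 2 (0.0715) or 3 (0.138), and that of Ugt302C1 without sechellia replicate 1 (0.082) or mauritiana replicate 1 (0.0902).

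**Figure D3:**
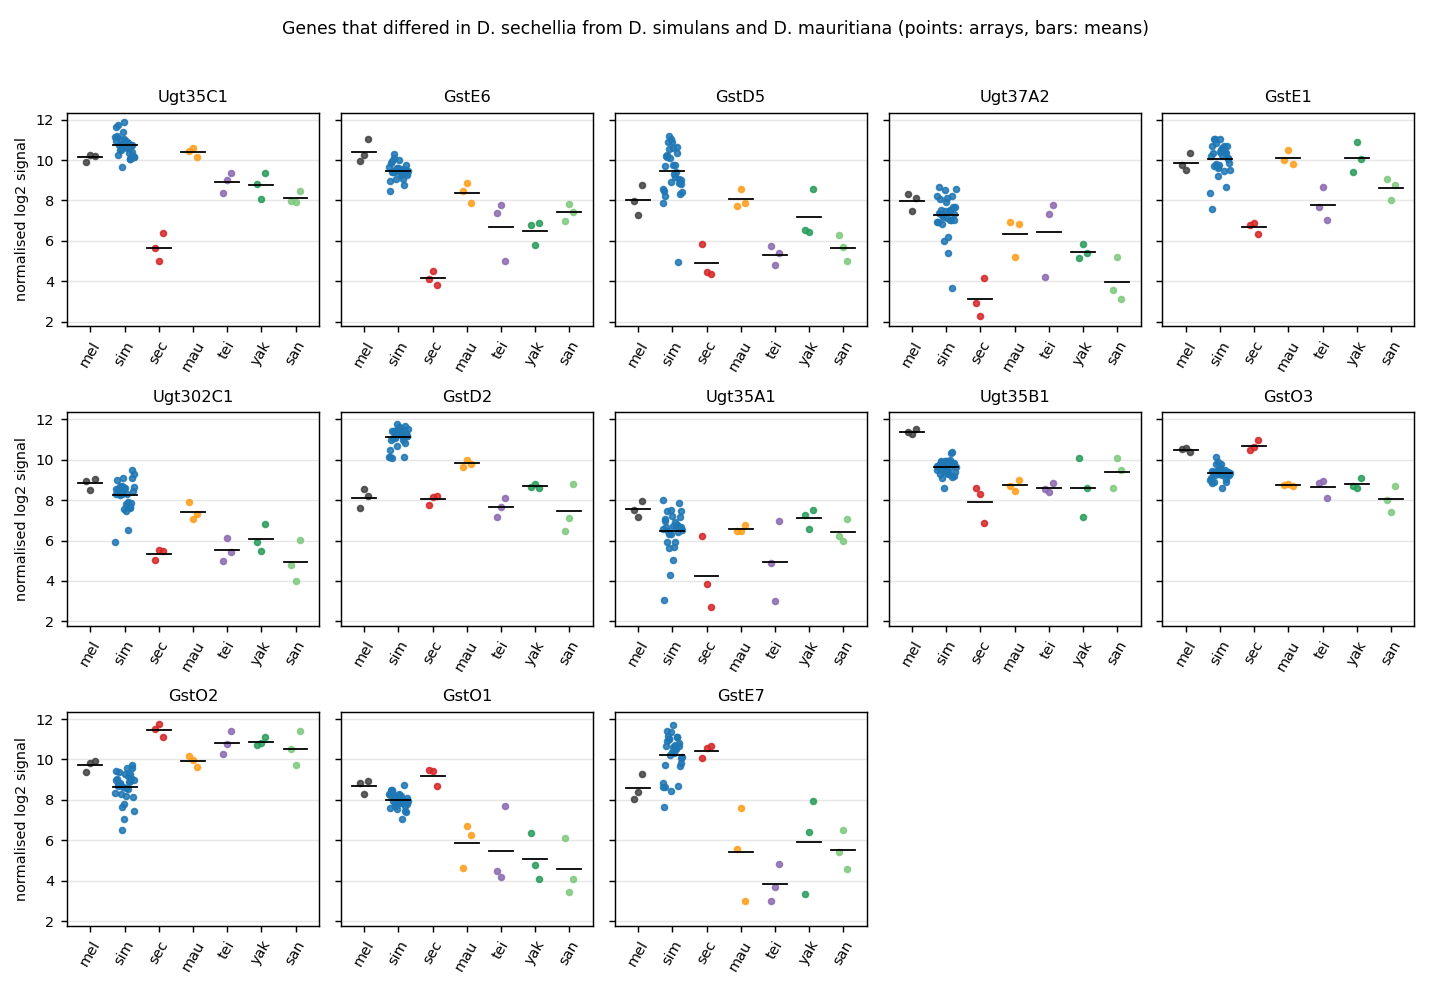
Normalised log2 signal of the 13 genes that differed between D. sechellia and its sister species, with a point for each array and a bar for each species mean (mel, sim, sec, mau, tei, yak and san are the first letters of the 7 species). The 3 sechellia arrays of Ugt35C1 and GstE6 lie below every array of D. simulans and D. mauritiana, and those of GstO2 and GstO3 lie above.

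Markers of the midgut, a tissue known for both enzyme families, also differed in D. sechellia. The mean signal of 7 digestive enzymes of the midgut was 9.11 to 9.50 on its arrays, 13.22 to 13.44 in D. mauritiana and 10.74 to 13.41 in D. simulans, and 6 of the 7 were called lower. Against D. mauritiana alone 5 of the 7 were lower. Of 3 Malpighian tubule markers 0 were called against the sister species, and of 3 antenna markers also 0. The antenna markers lush and Orco were dim, with mean signals over the groups of 5.07 and 5.49. The part of these markers in the values above was not tested. Without sechellia replicate 1 and simulans 37x43 replicate 3, the arrays with female markers, 12 genes differed, 9 lower and 3 higher, with GstE7 no longer past the threshold (2.79, adjusted p = 0.0668). Against D. mauritiana alone 10 differed without those arrays.

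D. simulans minus D. melanogaster (30 arrays against 3), both of the earlier collection, called 6 of the 67 genes higher (8.96%, background 10.1%) and 6 lower (8.96%, background 9.1%), 12 in all beside 19.2% of all features. All 6 that rose were Gst genes, GstD2, GstD4, GstD9, GstE2, GstE3 and GstT3. The 6 that fell were GstE6, GstO2, GstO3, Ugt35B1, Ugt36E1 and Ugt37B1. Beside them 7 of 9 accessory gland genes and 3 of 8 testis genes were lower, and of the 7 midgut genes 3 were higher and 1 lower. Their part was not tested.

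GstD2 gave 7.59, 8.57 and 8.19 in D. melanogaster, and its 30 simulans arrays ran from 10.09 to 11.80. The gap between the arrays was 1.53, and the signal was 7.99-fold higher (3.00, SE 0.29, adjusted p = 1.68e-09), rank 26 among all features. All 11 delta genes had a difference above 0, with a median of 0.44 beside 0.09 over all features, but only GstD2, GstD4 (1.82, SE 0.54, adjusted p = 0.0147) and GstD9 (0.98, SE 0.36, adjusted p = 0.0492) passed. The call of GstD9 was lost in 30 of 33 fits without 1 array, with adjusted p up to 0.241.

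Ugt35B1, known from the antenna of D. melanogaster, gave 11.39, 11.27 and 11.53 there and 8.60, 9.67 and 10.41 as lowest, median and highest in D. simulans. It fell by 1.77 (SE 0.34, adjusted p = 0.000233), or by 1.13 with the mean of both its probe sets, and no arrays overlapped. GstO3 fell by 1.16 (SE 0.23, adjusted p = 0.000293), also without overlap, from 10.55, 10.60 and 10.36. Ugt36E1, at 8.53, 8.61 and 8.98 in D. melanogaster and at most 8.35 in D. simulans, fell by 1.30 (SE 0.37, adjusted p = 0.011). Non-overlap downwards was seen in 3 of the 67 genes (4.48%), beside 5.96% of all features, and upwards in 2 (2.99%), beside 2.27%.

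GstT3, at 10.24, 9.82 and 9.96 in D. melanogaster, rose by 0.91 (SE 0.30, adjusted p = 0.0308) with no overlap. GstE3 (1.26, SE 0.28, adjusted p = 0.00118) and GstE2 (1.79, SE 0.43, adjusted p = 0.00297) rose, and Ugt37B1 (-2.22, SE 0.64, adjusted p = 0.0122) fell, each with overlapping arrays.

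With 3 arrays of D. melanogaster, several of these calls changed when 1 of them was left out. Without melanogaster replicate 2 the count was 6, 3 higher and 3 lower, in place of 12. GstT3 was lost without melanogaster replicate 1 (adjusted p = 0.0652), 2 (0.16) or 3 (0.111), GstE6 and GstO2 without replicate 2 (0.0898 and 0.107) or 3 (0.30 and 0.107), and Ugt36E1 without replicate 3 (0.0812). With the mean of its 3 probe sets GstO2 gave -0.77 (adjusted p = 0.168).

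**Figure D4:**
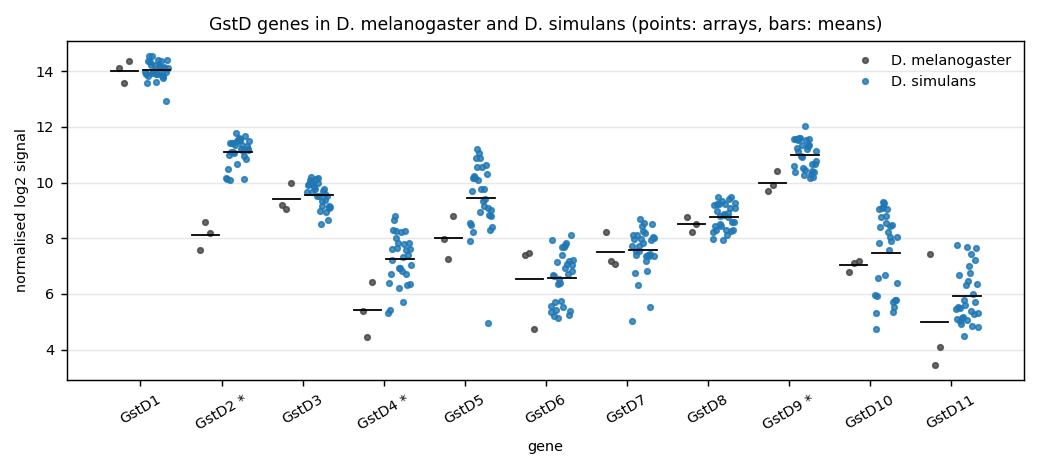
Normalised log2 signal of the 11 GstD genes in D. melanogaster (grey, 3 arrays) and D. simulans (blue, 30 arrays), with points for arrays, bars for species means and an asterisk at the genes that differed. GstD2 is the gene whose arrays are fully apart, and GstD10 spreads from 4.73 to 9.30 within D. simulans.

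Inside the yakuba complex few differences passed. D. teissieri minus D. yakuba and D. santomea (3 arrays against 6) called 2 of 67 genes (2.99%, background 6.58%). GstE1 gave 7.70, 8.66 and 7.02 in D. teissieri, 9.39, 10.90 and 10.06 in D. yakuba and 9.06, 8.04 and 8.78 in D. santomea, a difference of -1.58 (SE 0.41, adjusted p = 0.0139). GstD9 was higher by 1.46 (SE 0.42, adjusted p = 0.0257). Both overlapped in some arrays, and without yakuba replicate 2, santomea replicate 2 and teissieri replicate 3 neither of the 2 passed, while 2 other members did. Without teissieri replicate 1 the count was 1, without yakuba replicate 1 or 3 or santomea replicate 1 it was 4, and without santomea replicate 3 it was 5. Single omissions that ended the call were teissieri replicate 1 or 3 for GstE1 (adjusted p = 0.055 and 0.135), and any teissieri array (0.0573, 0.0573 and 0.122), yakuba replicate 2 (0.0569) or santomea replicate 2 (0.0754) for GstD9.

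D. santomea minus D. yakuba (3 arrays against 3) called 0 of 67 genes in limma, beside 5.05% of all features, and 16 had an unadjusted p under 0.05. The lowest adjusted p was 0.0564, for GstD9, which gave 9.22, 6.33 and 9.11 in D. yakuba and 7.93, 5.36 and 6.80 in D. santomea (-1.52, SE 0.48). Close to it were GstE9 (-2.16, SE 0.68, adjusted p = 0.0569), GstE1 (-1.49, SE 0.47, adjusted p = 0.0578) and GstD8 (1.25, SE 0.40, adjusted p = 0.0586). Leaving out 1 array gave 6 calls without santomea replicate 1, 4 without yakuba replicate 2, 3 without yakuba replicate 1 or santomea replicate 3, 2 without santomea replicate 2 and 0 without yakuba replicate 3. A GstO2 probe set that was not kept rose by 1.86 (adjusted p = 0.0178), while the kept one gave -0.34 (adjusted p = 0.723).

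Within D. simulans, 2 of 67 genes varied among the 10 crosses (2.99%, background 0.558%), and 9 had an unadjusted p under 0.05. GstD10, a delta-class enzyme, had F = 9.68 (adjusted p = 0.000324) and ranked 10 among all features. GstE11 had F = 4.92 (adjusted p = 0.0466). The others with an unadjusted p under 0.05 were GstO2 (F = 3.97), GstE1 (3.92), Ugt303B2 (3.24), Ugt35C1 (2.97), GstD3 (2.74), Ugt36E1 (2.58) and Ugt37D1 (2.22), with adjusted p between 0.123 and 0.557.

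GstD10 was lowest in cross 6x11, with 5.95, 5.30 and 4.73, and in 99x105, which shares no line with it, with 5.72, 5.54 and 5.79. It was highest in 37x43, with 9.10, 9.11 and 9.30, and in 36x37, with 9.04, 8.42 and 8.78, and all arrays of the low pair lay below all arrays of the high pair. The means of the crosses between 36x37 and 77x85 lay between 8.03 and 9.17, and those of 99x105, 105x6, 6x11 and 11x36, which follow each other in the ring, between 5.33 and 6.78. Cross 85x99, with 7.89, 8.47 and 5.37, and cross 43x61, with 9.27, 6.68 and 8.56, spread over both ranges. GstD10 passed in all 39 alternative fits, with adjusted p up to 0.00212.

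GstE11 was lowest in cross 43x61, with 4.25, 4.97 and 6.15, and in 77x85, with 5.19, 5.89 and 5.27, and highest in 105x6, with 7.90, 7.87 and 7.59. The arrays of 105x6 lay above all arrays of the 2 low crosses. The call of GstE11 was lost in 23 of the 30 fits that left out 1 simulans array, with adjusted p up to 0.14 without 43x61 replicate 1, and with the replicate block. Among species GstE11 did not pass (F = 0.86, adjusted p = 0.561), and GstD10 did (F = 4.24, adjusted p = 0.00553). Means of GstD10 spanned 3.84 over the crosses and 2.36 over the species, and the species test holds no spread among crosses.

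**Figure D5:**
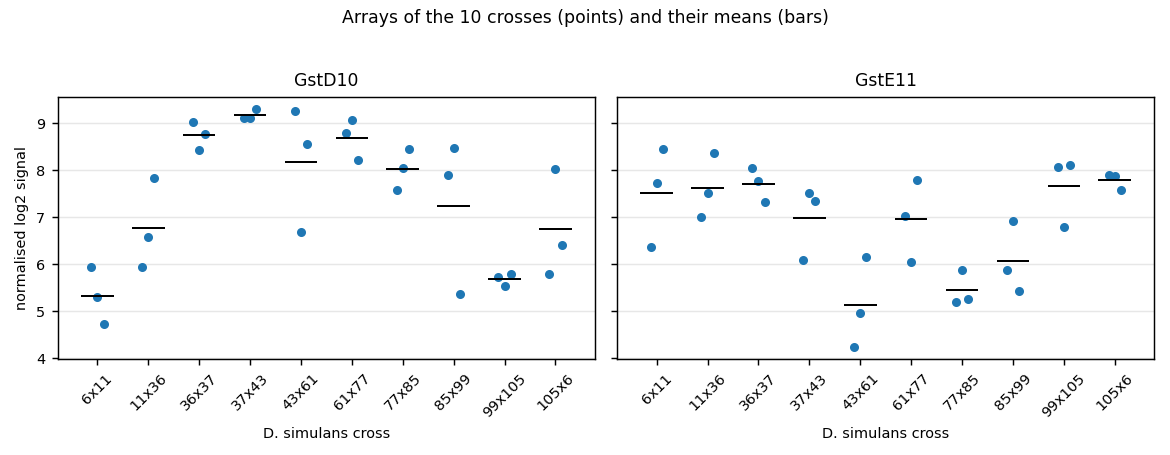
Normalised log2 signal of GstD10 and GstE11 on the 3 arrays of each D. simulans cross (points) with the cross means (bars), in the order of the ring, so that neighbours share a parental line and 105x6 joins 6x11. GstD10 runs from a mean of 5.33 in 6x11 to 9.17 in 37x43, and GstE11 from 5.12 in 43x61 to 7.79 in 105x6.

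Genes that supply or regulate these enzymes were read from the same fit. Of 8 genes of glutathione synthesis, reduction and use, 5 were lower and 1 higher in the yakuba complex than in the melanogaster complex. The backgrounds of all features in this contrast were 24.5% lower and 25.3% higher. Gclm, the modifier subunit of the enzyme that starts glutathione synthesis, fell by 2.74 (adjusted p = 2.7e-15) and the catalytic subunit Gclc by 0.71 (adjusted p = 0.0248). The microsomal transferase Mgstl, the zinc-finger transferase gfzf and se, the omega-class enzyme of eye pigment synthesis, fell by 1.0, 2.15 and 1.72. Trxr1, which reduces glutathione by way of thioredoxin in flies, rose by 0.90 (adjusted p = 2.05e-05). Within the later collection 4 of the 8 were lower (background 21%) and 1 higher (background 18.4%).

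Both measured genes of UDP-sugar supply were lower in the yakuba complex than in the melanogaster complex (background 24.5%). UGP fell by 1.48 (adjusted p = 8.61e-07) and sgl by 1.40 (adjusted p = 0.000171). Both were also lower within the later collection (background 21%). In D. sechellia against its sister species, 1 of the 8 glutathione genes was called, beside 6.17% of all features. This was Ggt-1, which splits glutathione, higher by 1.42 (adjusted p = 0.003). Of 4 regulators 1 was called. This was Keap1, the inhibitor of the stress factor cnc, lower by 2.89 (adjusted p = 0.00036), while cnc gave 0.21 (adjusted p = 0.83). Against D. mauritiana alone, 1 glutathione gene was called higher (background 2.32%) and 1 regulator lower (background 2.94%).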

How the data were processed

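RNA of whole males was hybridised to 48 Affymetrix Drosophila 1.0 arrays. The authors computed MAS5 intensity values and deposited them as 1 table of 14010 probe sets, in which each array has a trimmed mean of 500. The study's methods also name a Loess step and a masking of probes. Both need probe-level data, which were not used here, and whether the deposited intensities hold the Loess step is not given in the sources used here.

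Values below a floor of 1 (31 values) were raised to it, log2 was taken, and arrays were quantile normalised because their medians spanned 0.696 log2 units, above the 0.3 allowed. The 44 control probe sets were left out. The platform annotation, whose names can be old, gave 1 gene symbol for 12444 probe sets, several for 327 and none for 1239. The brightest probe set of each gene and all unnamed probe sets made 12367 features. Linear models over the 16 groups were fitted with limma 3.58.1 in R 4.3.3, with D. simulans as the mean of its 10 crosses and species weighted equally, so all groups share 1 estimate of the spread. Moderated F-tests compared species and crosses, and moderated tests of contrasts gave differences (log2), both with Benjamini-Hochberg adjustment over all features and a threshold of 0.05. That spread is the one between replicate arrays of a group. It holds no spread among species of a complex, among lines or among crosses. The fit was tested on simulated data. Figures were drawn with matplotlib 3.10.9 in Python 3.11.15.

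The genes named first were the 2 members of each class with the highest mean signal, the 12 with the largest F among species, the 6 with the largest F among crosses and, for each contrast, up to 3 called genes in each direction whose arrays did not overlap. Counts of 5 or fewer were named, and the other genes named were chosen after their values were seen. The members and gene lists were chosen with earlier results of these data known. Groups and replicate numbers came from the labels, which describe the replicates as independent biological samples. Same-numbered arrays of different groups did not deviate together (mean r = -0.00052 over 360 pairs), so numbers were not taken to pair arrays.

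Alternatives were no quantile normalisation, equal array medians, a floor of 16, only features with a mean log2 signal of at least 7, the mean of all probe sets of a gene, array weights, the replicate number as a block and each array left out. After the data were seen, fits without the 2 arrays of high female markers and without the 3 arrays of low agreement were added. Array data carry no read depth, and the number of arrays limits the precision. No sequence of these genes was used here.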

Additional observations from a re-analysis of the deposited data

How the results depend on the processing

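Counts of genes that differed moved by more than 1.5 times under a few alternatives. D. santomea minus D. yakuba, 0 in limma, gave 3 without quantile normalisation (4.23% of all features called), 6 of 42 members among features of a mean log2 signal of at least 7 (9.77%), 3 with array weights (1.19%) and 5 without the 3 arrays of low agreement (4.03%). The crosses, 2 genes, gave 11 with array weights (5.51% of all features, in place of 0.558%), 6 without those 3 arrays (2.30%) and 1 without the 2 arrays of high female markers (0.501%). With array weights D. sechellia minus both related species gave 27 in place of 13, while the share of all features rose from 6.17% to 22.8%, and minus D. mauritiana alone 27 in place of 12, with 18.6% in place of 5.26%. The cause was not tested. Without quantile normalisation the median of all features moved by 0.12 in the yakuba complex contrast and by 0.15 in its contrast within the later collection.

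With 1 array left out, counts ran from 41 to 49 among species (47), 1 to 2 among crosses (2), 34 to 38 for the yakuba complex (36) and 23 to 28 within the later collection (28). They ran from 10 to 13 for D. sechellia (13), 8 to 11 against D. mauritiana (12), 0 to 6 for D. santomea (0), 6 to 13 for D. simulans minus D. melanogaster (12, with 6 without melanogaster replicate 2) and 1 to 5 for D. teissieri (2).

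With the replicate number as a block, the crosses gave 1 and D. santomea minus D. yakuba gave 1. The other counts under the block were 46 among species, 35 and 26 for the yakuba complex, 13 and 12 for D. sechellia, 12 for D. simulans minus D. melanogaster and 2 for D. teissieri. The pairing of arrays by number was not borne out by their deviations.

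For 95 results on the genes named by the rule, over 4095 settings in all, 3878 kept their side of the threshold, 217 lost it and 0 changed sign.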

Other observations

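Genes around these enzymes were also read between the species of the earlier collection. Of the 8 glutathione genes 2 were called, of the 2 genes of UDP-sugar supply 0 and of the 4 regulators 1. The background in this contrast was 19.2% of all features. In D. simulans minus D. melanogaster, Hr96, a nuclear receptor known for xenobiotic responses in D. melanogaster, was higher by 0.92 (SE 0.29, adjusted p = 0.0227) and Gclc by 1.08 (SE 0.38, adjusted p = 0.0424), while Trxr1 was lower, at -0.68 (SE 0.24, adjusted p = 0.0368). Within the later collection the yakuba complex kept the low signal of Gclm (-2.46, SE 0.22, adjusted p = 3.51e-11) and the high signal of Trxr1 (1.11, SE 0.21, adjusted p = 4.87e-05), and Gclc gave -0.51 (SE 0.33, adjusted p = 0.234).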
